A study of Mus musculus with 2 samples.

Results

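Group 1 innate lymphoid cell (ILC1)-like cells of the mouse liver were found among single-cell transcriptomes of sorted CD45+CD11b+ leukocytes. Members were chosen by their own UMIs (unique molecular identifiers, molecule tags of which 1 stands for 1 captured transcript): a barcode with 200 or more detected genes and no more than 10% mitochondrial UMIs needed at least 1 UMI of Ncr1 or Klrb1c, at least 2 UMIs of Itga1 and Cxcr6 together, no UMI of Eomes, Cd3e or Cd3d, and at most 2 UMIs of Lyz2. This rule chose 135 of 7969 deposited barcodes, and of 7603 that passed the gene and mitochondrial limits. Of the members, 31 were RES cells and 104 were Ctrl cells. Natural killer (NK) cells, taken as the class most like them, passed the same limits but had no Itga1 or Cxcr6 UMI and at least 1 Eomes UMI, and numbered 945 in RES and 958 in Ctrl.

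RES was the library from C57BL/6 mice after their liver fibrosis had resolved, and Ctrl the library from uninjured C57BL/6 mice. The age and sex of the mice and the way the fibrosis was caused are not given in the sources used here. For each library, liver mononuclear cells from a Histopaque gradient of 5 mice were pooled and sorted for the leukocyte antigen CD45 and the integrin CD11b, and 10x 3′ v2 droplets were sequenced. Each group was thus 1 library: RES and Ctrl have no replicate check, and library and group cannot be told apart.

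ILC1s are tissue-resident relatives of NK cells. They share with them the receptors NKp46 (Ncr1) and NK1.1 (Klrb1c) and the factor T-bet, but in the liver they carry the collagen-binding integrin CD49a (Itga1) and the chemokine receptor CXCR6 and lack the T-box factor Eomes, which NK cells need for their maturation. They stay in the sinusoids, produce interferon-γ early in infection or injury, and kill through TRAIL and granzymes. In mice, hepatic ILC1s are described in states that differ in the IL-7 receptor and in cytotoxic genes. CD11b, on which these cells were sorted, is carried by mature NK cells and by only some ILC1s, so the members are those ILC1-like cells that the sort let through.

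ILC1-like cells held 193070 UMIs in RES and 433810 in Ctrl, with medians of 6230 UMIs per cell in RES (3248 to 11099) and 3993.5 in Ctrl (1224 to 14159). NK cells had medians of 4265 UMIs in RES and 3515 in Ctrl, and all kept barcodes 6549 and 4576. For each class and library, UMIs were summed over cells, and levels are given in CPM, a gene's UMIs per 1000000 UMIs of that sum. Across the libraries 56 barcode sequences occurred in both, and none of them belonged to an ILC1-like cell. Of the members, 0 in RES and 3 in Ctrl had doublet scores among the highest of their library, and none was removed for it. All intervals are 95% intervals of counting error and say nothing of the spread between mice. Those of UMI sums and of their ratios also leave out the spread between cells.

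The given markers were picked for this label, so their levels describe the members and cannot test it. The gate had used Itga1, at 326 CPM in RES and 682 CPM in Ctrl, and Cxcr6, at 331 and 413 CPM, so these are descriptions. Xcl1, a chemokine that draws cross-presenting dendritic cells, had 1274 CPM in RES ILC1-like cells and 1704 CPM in Ctrl ILC1-like cells, against 311 CPM in RES NK cells and 421 CPM in Ctrl NK cells. Cd160, a receptor for the TNF receptor family member HVEM, had 311 and 318 CPM in RES and Ctrl ILC1-like cells, against 66.2 and 61.4 CPM in RES and Ctrl NK cells. Cd7, a surface glycoprotein of T and NK lineage cells, had 1191 and 1929 CPM in RES and Ctrl ILC1-like cells, against 248 and 228 CPM in RES and Ctrl NK cells. Both ILC1-like sums stood above both NK sums for each of these markers. They were selected with these data in view, so no test is given for them.

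Gzmc, a granzyme that mouse ILC1s carry, was at 176 CPM in RES ILC1-like cells and 643 CPM in Ctrl ILC1-like cells, against 1.33 CPM in RES NK cells and 5.73 CPM in Ctrl NK cells. In RES, 27 of its 34 UMIs lay in 1 cell. After each cell was thinned to 1000 UMIs, Xcl1 was seen in 64.5% of RES (45.4 to 80.8, exact Clopper-Pearson) and 74.0% of Ctrl ILC1-like cells (64.5 to 82.1), and unthinned in 83.9% and 93.3%. In barcodes with at least 5 Lyz2 UMIs and no T or NK marker, which should lack Xcl1, the thinned shares were 0.0495% in RES and 0.0850% in Ctrl, at median depths of 10019 and 7609 UMIs. Gzmc was seen in 6.45% of thinned RES and 22.1% of thinned Ctrl ILC1-like cells (19.4% and 41.3% unthinned). In the Lyz2-high barcodes it was seen in 0.0495% of thinned RES cells and in 0 of 1176 thinned Ctrl cells, which allows a share of up to 0.255%. Both markers were above that background in both libraries.

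Of the markers outside the gate, 3 had a promoter in the RefSeq table (mouse build GRCm38.p6), and 2 of them held the T-box core motif GGTGTGA, on either strand, within 250 bases before the start. Eomes, which NK cells have and ILC1s lack, and T-bet, which both have, belong to the T-box family, which is why these stretches are shown. Cd200r2, among the 12 tested genes highest in ILC1-like cells over NK cells, was the only one of 9 with a promoter in the table to hold the motif, and 0 of 8 of the 12 lowest did. The motif was held by 3.84% of all 27025 genes in the table. A match is a description of the letters and not a binding site. The motif is in capitals, in 107 bases read 5′ to 3′ on the strand of the gene. No base of these stretches lies in an exon of the GENCODE M21 annotation. The motif lies 188 to 182 bases before the start of Xcl1 (chr1:164935654-164935760, minus strand), 189 to 183 before a start of Cd160 (chr3:96814654-96814760, minus strand) and 149 to 143 before that of Cd200r2 (chr16:44866898-44867004, plus strand, where the motif runs on the other strand).
Xcl1: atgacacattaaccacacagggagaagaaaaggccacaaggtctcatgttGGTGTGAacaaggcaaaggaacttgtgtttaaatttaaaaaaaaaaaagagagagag
Cd160: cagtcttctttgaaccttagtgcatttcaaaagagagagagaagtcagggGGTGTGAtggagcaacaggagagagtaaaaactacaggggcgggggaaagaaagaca
Cd200r2: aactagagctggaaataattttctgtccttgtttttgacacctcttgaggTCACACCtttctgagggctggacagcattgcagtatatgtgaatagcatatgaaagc

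ILC1-like cells made up a smaller share of the RES library than of the Ctrl library. They were 0.746% of 4157 kept RES barcodes (0.507 to 1.06, exact Clopper-Pearson) and 3.02% of 3446 kept Ctrl barcodes (2.47 to 3.65), a difference of -2.27 percentage points (-2.94 to -1.67, Newcombe interval). Among ILC1-like and NK cells together they were 3.18% in RES (2.17 to 4.48) and 9.79% in Ctrl (8.07 to 11.7), a difference of -6.62 points (-8.76 to -4.52). NK cells made up 22.7% of kept RES and 27.8% of kept Ctrl barcodes. The gate counts UMIs and the RES cells were deeper, yet with every cell thinned to 2000 UMIs before the gate the shares were 0.400% in RES (16 cells) and 2.11% in Ctrl (68 cells). Fewer cells of a class, and a class that the sort on CD11b let through less often, cannot be told apart here. Itgam, which encodes the sorted CD11b, was at 51.8 CPM in RES and 85.3 CPM in Ctrl ILC1-like cells, against 266 and 227 CPM in RES and Ctrl NK cells.

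The difference in share lay in cells that carried Cd3g, the γ chain of the CD3 complex, which the gate did not use. Cd3g lies on chr9:44969572-44980431 (minus strand, mm10, GENCODE M21), and 1355 bases separate its 5′ end from that of Cd3d, which the gate did use, on the other strand. Of the RES members 1 of 31 had a Cd3g UMI, and of the Ctrl members 81 of 104. Members with Cd3g were 0.0241% of kept RES barcodes (0.000609 to 0.134) and 2.35% of kept Ctrl barcodes (1.87 to 2.91). Members without Cd3g were 0.722% of kept RES barcodes (30 cells, 0.487 to 1.03) and 0.667% of kept Ctrl barcodes (23 cells, 0.424 to 1.0). With Cd3e, Cd3d, Cd3g and Trac all at 0, the difference in share turned to 0.0592 points (-0.330 to 0.431), and no difference was detectable at this depth. The split by Cd3g was chosen after its values were seen.

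**Figure D1:**
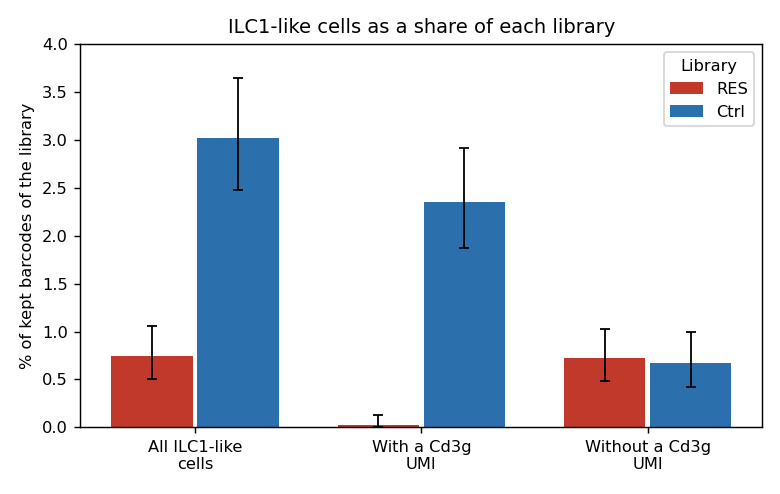
Bars give ILC1-like cells as a percentage of the kept barcodes of each library, for all members, members with a Cd3g UMI and members without one (RES red, left; Ctrl blue, right); error bars are exact 95% intervals of counting error. Members with Cd3g were 0.0241% of RES and 2.35% of Ctrl barcodes, while those without it were 0.722% and 0.667%.

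Cd3g had 46.6 CPM in RES ILC1-like cells (21.3 to 88.5, exact Poisson interval), where all 9 UMIs came from 1 cell, and 1528 CPM in Ctrl ILC1-like cells (1414 to 1649), where no cell had more than 22 of the 663 UMIs. The log2 ratio of RES over Ctrl was -5.04 (-6.17 to -4.10). In NK cells Cd3g had 4.0 CPM in RES and 4.36 CPM in Ctrl, near nothing in both. The 81 Ctrl members with Cd3g held some other T cell transcripts and lacked others. Cd5, Cd8a and Cd28, T cell surface receptors, were at 0 UMIs in them, and Trac, the constant part of the T cell receptor α chain, was at 12 CPM. Cd28 did not mark T cells alone in these data, with 59.3 and 46.1 CPM in RES and Ctrl NK cells. Trbc1 and Trbc2, constant parts of the β chain, were at 854 and 797 CPM in them. NK cells held these too, with 298 and 323 CPM of Trbc1 and 159 and 217 CPM of Trbc2 in RES and Ctrl. Cd3e and Cd3d were at 0 by the gate. T-lineage barcodes (at least 2 UMIs of Cd3e and Cd3d together, no Ncr1 or Klrb1c; 47 in RES and 39 in Ctrl) had 346 CPM of Trac in RES and 418 CPM in Ctrl, with 106 and 94.4 CPM of Cd5.

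The Ctrl members with Cd3g also carried innate adaptor transcripts. Tyrobp, the DAP12 adaptor of activating NK receptors, had 3707 CPM in them, against 569 CPM in RES and 404 CPM in Ctrl T-lineage barcodes. Bcl11b, a zinc finger factor of T cells and some innate lymphoid cells, had 120 CPM in Ctrl members with Cd3g, 37.5 CPM in RES members without it and 39.4 CPM in Ctrl members without it. T-lineage barcodes had 318 CPM of Bcl11b in RES and 381 CPM in Ctrl. Members without Cd3g held Trbc1 too, at 685 CPM in RES and 532 CPM in Ctrl. Tcrg-C4 and Tcrg-C1, constant parts of the T cell receptor γ chain, were at 198 and 48.2 CPM in these RES members. In the Ctrl members without Cd3g they were at 88.7 and 29.6 CPM. Trdc, of the δ chain, was at 16.1 and 49.3 CPM in RES and Ctrl members without Cd3g, against 65.1 and 79.6 CPM in RES and Ctrl NK cells. The limit on Cd3e and Cd3d alone left out a further 6 RES and 22 Ctrl barcodes. Trac was at 707 CPM in these RES barcodes and 263 CPM in these Ctrl barcodes, and Tyrobp at 618 and 2158 CPM. The Ctrl barcodes left out thus held both T cell and innate transcripts, and how many of the members are T lineage cells whose Cd3e and Cd3d were not captured was not tested.

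**Figure D2:**
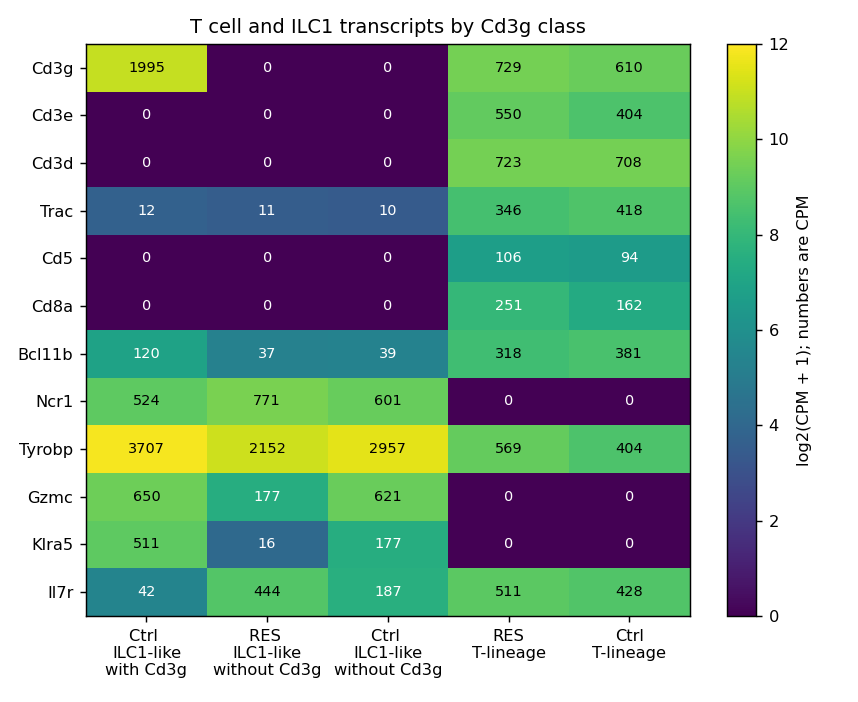
Rows are T cell, innate and effector genes and columns are members with Cd3g in Ctrl, members without Cd3g in RES and in Ctrl, and T-lineage barcodes in RES and in Ctrl; numbers are CPM and colours log2(CPM + 1). Ctrl members with Cd3g had 12 CPM of Trac and 3707 CPM of Tyrobp, and T-lineage barcodes had 346 and 418 CPM of Trac in RES and Ctrl.

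RES ILC1-like cells had less Gzma, Gzmb, Gzmc and Klra5 and more Il7r, Tcf7, Rora, Emb, Tmem176a and Tmem176b than Ctrl ILC1-like cells. Of the 3750 genes measured, that is at 50 CPM or more in one of the libraries or in both, 192 (5.12%) were at least 1.5-fold higher in RES and 271 (7.23%) at least 1.5-fold lower, with an interval off a ratio of 1. If UMIs were independent draws, counting error alone could place up to 2.5% of genes outside such an interval on each side. UMIs of a gene that gather in few cells raise that share, and the 1.5-fold limit lowers it. The 2.5% is thus no chance rate of these calls. By the same criteria in NK cells, 22 of 3240 genes (0.679%) were higher in RES and 11 (0.340%) lower. The NK sums rest on many more UMIs, and the difference between the classes was not tested. With 1 library per group no p-value can be given for RES against Ctrl.

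Of the genes lower in RES, 3 encode granzymes. Gzmb, granzyme B, had 399 CPM in RES (315 to 498) and 1768 CPM in Ctrl (1645 to 1898), a log2 ratio of -2.15 (-2.51 to -1.81). It was seen in 18 of 31 RES cells and 97 of 104 Ctrl cells, and 23 of the 77 RES UMIs came from the 1 RES cell with Cd3g. Gzma, granzyme A, had 2372 CPM in RES (2160 to 2600) and 8506 CPM in Ctrl (8234 to 8785), with a log2 ratio of -1.84 (-1.99 to -1.70). Gzmc had 176 CPM in RES (122 to 246) and 643 CPM in Ctrl (570 to 723), with a log2 ratio of -1.87 (-2.43 to -1.35). Prf1, the pore-forming perforin, did not follow the granzymes, with 295 CPM in RES and 290 CPM in Ctrl (0.02, -0.45 to 0.49). Of the 12 granule and cytotoxicity genes measured, 0 were higher and 4 lower in RES, and the fourth was Cst7, an inhibitor of granule cathepsins (166 CPM in RES, 263 CPM in Ctrl). The median log2 ratio of this list was 0.05, beside -0.06 over all measured genes. Among the given markers, Cd7 was lower in RES (-0.70, -0.91 to -0.48), while Xcl1 (-0.42, -0.63 to -0.21) and Cd160 (-0.03, -0.50 to 0.41) did not reach 1.5-fold. In members without Cd3g the ratio was -0.14 for Cd7 (-0.45 to 0.19) and -0.89 for Xcl1 (-1.15 to -0.63). Of the 247 Xcl1 UMIs in these Ctrl members, 111 came from 1 cell, so the Xcl1 ratio leans on that cell. In NK cells the ratio was -0.17 for Gzmb, -0.08 for Gzma and -2.10 for Gzmc, the last at under 6 CPM in both libraries.

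Death ligands and chemokines followed. Tnfsf10, which encodes TRAIL, had 114 CPM in RES and 237 CPM in Ctrl (-1.06, -1.79 to -0.38), and Fasl, the Fas ligand, had 88.1 and 182 CPM (-1.05, -1.90 to -0.28). They were 2 of the 4 measured genes of the death and TNF ligand list, none of which was higher. In members without Cd3g 1 of the 4 was higher and none lower, and Tnfsf10 was at -0.73 (-1.72 to 0.27). Ccl4, a chemokine that attracts monocytes and lymphocytes, had 321 CPM in RES and 1065 CPM in Ctrl (-1.73, -2.14 to -1.34), and Ccl3 had 129 and 237 CPM (-0.87, -1.57 to -0.23). No other of the 8 measured cytokine and chemokine genes was lower and none was higher. Ifng, the hallmark cytokine of the lineage, had 145 CPM in RES and 115 CPM in Ctrl, a log2 ratio of 0.33 whose interval (-0.39 to 1.03) holds 0. Csf1, the macrophage growth factor, had no UMI in RES and 20 UMIs in 17 Ctrl cells (46.1 CPM), and Zfp683, which encodes Hobit, a factor of liver-resident lymphocytes, had none in RES and 12 UMIs in 10 Ctrl cells. Both stayed under the 50 CPM limit.

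Klra5, which encodes the Ly49E receptor (chr6:129898996-129917650), had 15.5 CPM in RES (3.20 to 45.4), all 3 UMIs in 1 cell, and 433 CPM in Ctrl (374 to 500), in 43 of 104 cells, a log2 ratio of -4.80 (-7.09 to -3.23). Klra9 had 119 CPM in RES and 367 CPM in Ctrl (-1.62), and Klra7 had 15.5 and 64.5 CPM (-2.05), while Klra4 had 57.0 CPM in RES, with 9 of 11 UMIs in 1 cell, and 2.31 CPM in Ctrl. Ly49 genes are near-identical copies of each other, and reads could be divided among them in counting, so single members are uncertain. Of the 6 measured Ly49 genes 1 was higher and 3 were lower in RES, beside 0 and 0 of 6 in NK cells. Of the 9 measured NKG2 and NKR-P1 receptor genes 2 were higher and none lower, with a median of 0.21. They were Klrb1b, an inhibitory NKR-P1 receptor, with 487 CPM in RES and 212 CPM in Ctrl (1.20), and Klrb1f, with 466 and 260 CPM (0.84).

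On the other side, Il7r, Tcf7 and Rora were among the 12 genes with the highest ratios. Il7r, the IL-7 receptor α chain, had 430 CPM in RES (342 to 533), in 19 of 31 cells, and 76.1 CPM in Ctrl (52.4 to 107), in 9 of 104 cells, a log2 ratio of 2.5 (1.90 to 3.13). Tcf7, which encodes TCF-1, a factor of early innate lymphoid and memory cells, had 109 CPM in RES (67.3 to 166) and 9.22 CPM in Ctrl (2.51 to 23.6), a ratio of 3.56 (1.99 to 5.56). Rora, which encodes the nuclear receptor RORα, had 155 CPM in RES (105 to 222) and 23.1 CPM in Ctrl (11.1 to 42.4), a ratio of 2.75 (1.68 to 3.95). None of these differed so between the NK sums: the ratios there were 0.30 for Il7r, -0.07 for Tcf7 and -0.01 for Rora. Tcf7 had 84.4 and 88.6 CPM in RES and Ctrl NK cells, near the RES members, so the Ctrl members were the low ones. Il7r (24.4 and 19.9 CPM) and Rora (19.5 and 19.6 CPM) were lower in RES and Ctrl NK cells than in RES members.

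Emb, which encodes embigin, a chaperone of monocarboxylate transporters, had 445 CPM in RES (356 to 550) and 23.1 CPM in Ctrl (11.1 to 42.4), a ratio of 4.27 (3.32 to 5.38). Tmem176b and Tmem176a are neighbours on chromosome 6 with 577 bases between their 5′ ends, and encode ion channel-like proteins of endosomal membranes. Tmem176b had 451 CPM in RES (361 to 556) and 46.1 CPM in Ctrl (28.2 to 71.2), a ratio of 3.29 (2.58 to 4.07). Tmem176a had 331 CPM in RES (255 to 423) and 48.4 CPM in Ctrl (30.0 to 74.0), a ratio of 2.78 (2.05 to 3.56). The rest of the 12 highest were Kbtbd11 (3.98), Glipr2 (2.75), 1700025G04Rik (2.70), Il18r1 (2.62), Anxa1 (2.51), which encodes annexin A1, and Capg (2.49), which encodes an actin-capping protein. Not all of these were high against NK cells. 1700025G04Rik had 169 and 171 CPM in RES and Ctrl NK cells, against 135 CPM in RES members. Anxa1 had 161 and 108 CPM in RES and Ctrl NK cells, against 171 CPM in RES members. Emb (219 and 140 CPM), Kbtbd11 (48.6 and 35.7), Glipr2 (77.3 and 63.5) and Capg (21.1 and 15.5) were lower in RES and Ctrl NK cells than in RES members.

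Of 17 measured cytokine receptor genes 6 were higher and 3 lower in RES, with a list median of 0.17. Beside Il7r these were both chains of the IL-18 receptor, Il18r1 (269 CPM in RES, 43.8 CPM in Ctrl, ratio 2.62) and Il18rap (275 and 120 CPM, 1.20), and Kit, the stem cell factor receptor, at 77.7 CPM in RES and 4.61 CPM in Ctrl (4.07, 1.97 to 7.25). Ifngr1, an interferon-γ receptor chain, had 694 CPM in RES (582 to 822) and 203 CPM in Ctrl (163 to 250), a ratio of 1.77 (1.38 to 2.18), and Il2rg, the common γ chain, had a ratio of 0.63. The 3 lower were Il21r (25.9 CPM in RES, 129 CPM in Ctrl, ratio -2.32), Ifnar1 (-1.10) and Tgfbr1 (-1.35), receptor chains for IL-21, type I interferon and TGF-β. In NK cells 0 of 12 measured cytokine receptor genes were higher or lower. Il18r1 had 333 and 312 CPM and Ifngr1 713 and 696 CPM in RES and Ctrl NK cells. For these 2 genes the RES members were near the NK level and the Ctrl members were the low ones. Il18rap had 424 and 487 CPM in RES and Ctrl NK cells, above both member sums. Kit, at 12.4 and 14.2 CPM in RES and Ctrl NK cells, was below the RES members, as was Il7r.

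Of 18 measured transcription factor genes 7 were higher in RES and 2 lower, with a median of 0.25. Beside Tcf7 and Rora the higher ones were Zeb2 (1.70), Klf2 (1.40), Ikzf2 (1.31), Stat4 (1.0) and Maf (0.67), and the lower ones were Irf8 (-0.81) and Ikzf3 (-0.66). Tbx21, which encodes T-bet, had 114 CPM in RES and 87.6 CPM in Ctrl (0.38, -0.45 to 1.17). Id2, which represses E proteins and is needed for all innate lymphoid cells, had 1652 CPM in RES and 1540 CPM in Ctrl (0.10, -0.10 to 0.30). Neither of these lineage factors met the criteria. Icos, a costimulatory receptor, had 62.2 CPM in RES and 4.61 CPM in Ctrl (3.75, 1.59 to 6.95), and Ccr2, the receptor for CCL2, 435 and 159 CPM (1.45, 0.98 to 1.93). Ccr2 was at 387 and 398 CPM in RES and Ctrl NK cells, near the RES members, and Icos at 10.7 and 11.2 CPM.

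Of 13 measured immediate-early genes 6 were higher in RES and none lower, though in members without Cd3g 2 of 14 were higher and 2 lower. The 6 included Fosb (378 CPM in RES, 184 CPM in Ctrl, ratio 1.04), Fos (176 and 89.9 CPM, 0.97) and Junb (611 and 360 CPM, 0.77). Jun had 259 CPM in RES and 383 CPM in Ctrl (-0.56). Of 7 measured heat shock genes 2 were higher and none lower. In NK cells 1 of 14 immediate-early genes was higher. These genes also answer to tissue handling, whose part was not tested. Of 12 measured MHC class I genes none met the criteria in either direction. Of 8 measured type I interferon response genes 1 was higher and 3 lower: Bst2 with 82.9 CPM in RES and 228 CPM in Ctrl, Ifi27l2a with 5.18 and 55.3 CPM, and Ly6a with 10.4 and 62.2 CPM. Of the 27 Ly6a UMIs in Ctrl, 19 came from 1 cell.

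**Figure D3:**
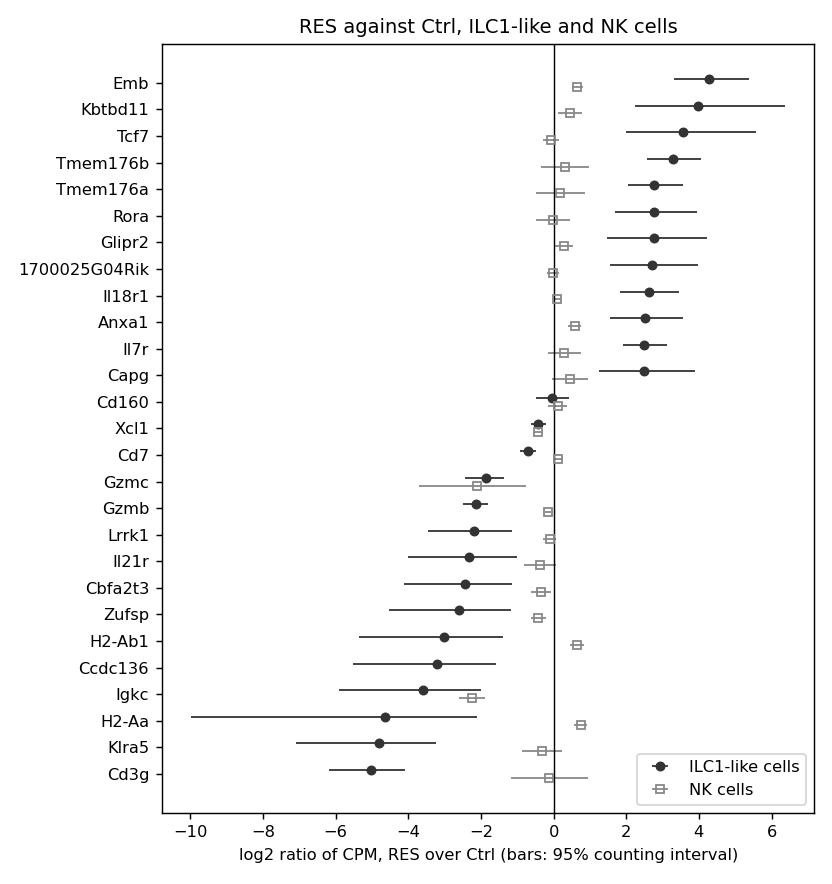
Points give the log2 ratio of CPM, RES over Ctrl, in ILC1-like cells (filled circles) and NK cells (open squares), with 95% counting intervals, for the 12 highest and 12 lowest ranked genes and the given markers outside the gate; Siglech, with no RES UMI, is left out, and Ccdc136 has no ratio in NK cells. Ratios in ILC1-like cells run from -5.04 for Cd3g to 4.27 for Emb, and most NK squares lie within 1 of 0.

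The Cd3g, Gzmc and Klra5 transcripts and the Il7r, Tmem176a and Tmem176b transcripts were counted in each cell. A UMI of the first set alone was found in 1 of 31 RES cells (3.23%, 0.0816 to 16.7) and 78 of 104 Ctrl cells (75.0%, 65.6 to 83.0). A UMI of the second set alone was found in 16 of 31 RES cells (51.6%, 33.1 to 69.8) and 6 of 104 Ctrl cells (5.77%, 2.15 to 12.1). Both sets were seen in 6 RES and 13 Ctrl cells and neither in 8 RES and 7 Ctrl cells, so that most RES cells with the first set and most Ctrl cells with the second carried both. With each cell thinned to 2000 UMIs, the first set alone was in 2 of 31 RES and 76 of 98 Ctrl cells, and the second alone in 19 of 31 RES and 8 of 98 Ctrl cells. Both sets were then in 1 of 31 RES and 5 of 98 Ctrl cells. At this equal depth, most RES cells with the first set and most Ctrl cells with the second thus carried 1 set alone. Both sets were put together after their values were seen, so the counts are a description.

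**Figure D4:**
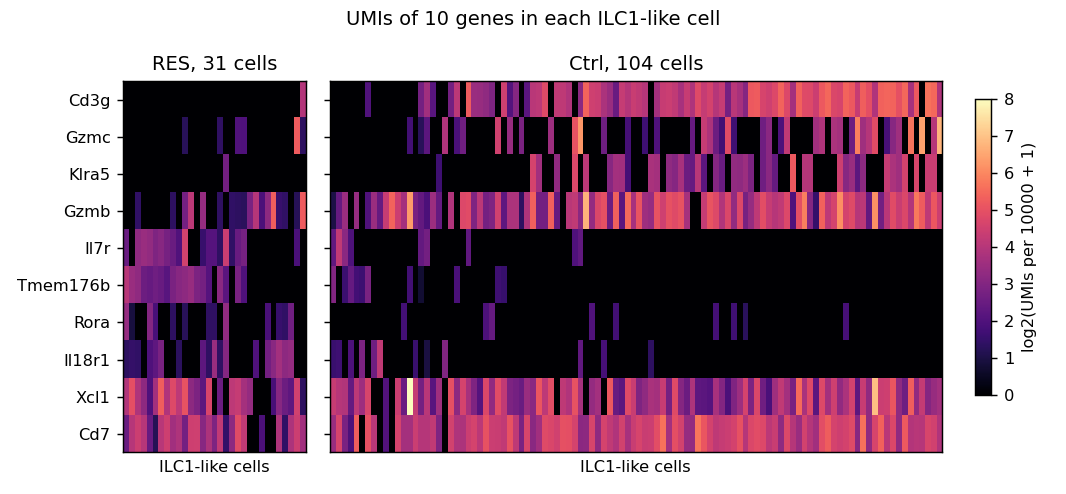
Each column is 1 ILC1-like cell (31 RES cells left, 104 Ctrl cells right), ordered within its library by Cd3g, Gzmc and Klra5 against Il7r and Tmem176b UMIs; colour is log2(UMIs per 10000 UMIs of the cell + 1) for 10 genes. Cd3g fills 1 of 31 RES columns and 81 of 104 Ctrl columns, and Il7r 19 of 31 RES columns and 9 of 104 Ctrl columns.

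The ratios were then taken in members without Cd3g alone, 30 RES and 23 Ctrl cells. Of 3683 measured genes 94 were higher in RES and 172 lower, beside 192 and 271 of 3750 among all members. The share of genes higher in RES was thus close to the 2.5% that counting error could place on each side were UMIs independent draws. As stated above, that is no chance rate of these calls. The granzymes stayed lower, with ratios of -2.34 for Gzmb (-2.82 to -1.89), -1.15 for Gzma (-1.33 to -0.97) and -1.81 for Gzmc (-2.47 to -1.18). Klra5 had 16.1 CPM in RES and 177 CPM in Ctrl (-3.47, -5.87 to -1.69). Of its 18 Ctrl UMIs, 9 lay in 1 cell and 8 in another, and its 3 RES UMIs lay in 1 cell, so this ratio rests on few cells. Among the genes higher in RES, Emb (2.53, 1.49 to 3.79), Tcf7 (2.51, 0.48 to 5.65), Rora (4.03, 1.44 to 9.38), Tmem176b (1.66, 0.86 to 2.55) and Il7r (1.25, 0.51 to 2.05) kept an interval above 0, at smaller ratios than among all members save for Rora. The Rora ratio rests on 1 Ctrl UMI and the Tcf7 ratio on 2, so their sizes are uncertain. Il18r1 had a ratio of 0.82 whose interval holds 0 (-0.01 to 1.73), and Ccr2 0.26 (-0.31 to 0.86). Others whose interval held 0 were Il18rap (0.50, -0.27 to 1.32), Kit (2.03, -0.08 to 5.20), Klf2 (0.08, -0.71 to 0.92), Ikzf2 (0.27, -0.69 to 1.29) and Capg (1.62, -0.17 to 4.03). Of 18 transcription factor genes 3 were higher, and of 17 cytokine receptor genes 3, with 1 lower in each list. The 23 Ctrl cells hold 101449 UMIs, so these ratios are less precise than those of all members.

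Of the lowest ratios, those of Siglech and Igkc rested on a few Ctrl cells with transcripts of other lineages. Siglech, a receptor of plasmacytoid dendritic cells, had no UMI in RES and 45 in Ctrl (104 CPM), all in 2 cells and 31 of them in 1. Set against a limit of 3 RES UMIs, its log2 ratio is -2.74 or lower. Igkc, the immunoglobulin κ constant region, had 3 UMIs in RES and 82 in Ctrl, of which 77 came from 1 cell. The MHC class II gene H2-Aa had 1 UMI in RES (5.18 CPM) and 56 UMIs in 23 Ctrl cells (129 CPM), and H2-Ab1 had 3 UMIs in RES (15.5 CPM) and 55 UMIs in 14 Ctrl cells (127 CPM). In NK cells H2-Aa had 170 CPM in RES and 101.2 CPM in Ctrl, and H2-Ab1 147 and 94.4 CPM. For these 2 genes the Ctrl members were thus nearer to the NK levels, and the RES members lay far below them. The other named genes lower in RES were Ccdc136 (-3.20), Zufsp (-2.61), Cbfa2t3 (-2.44), Il21r (-2.32) and Lrrk1 (-2.19), each seen in at least 38 Ctrl cells. With the cells that carried Cd79a, Ms4a1 or Siglech left out, the ratio was 0.31 for Igkc and -1.27 for H2-Ab1.

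Markers of other cell types were summed over whole lists. The 6 Kupffer cell markers summed to 5.18 CPM in RES and 2.31 CPM in Ctrl, with 5 at 0 in each, and the 8 neutrophil, basophil and mast cell markers to 0 and 2.31 CPM. The 8 B and plasma cell markers summed to 192 CPM in RES, with 5 at 0, and 636 CPM in Ctrl, with 1 at 0, against 137 and 233 CPM in RES and Ctrl NK cells. The 12 dendritic cell markers summed to 228 CPM in RES, with 6 at 0, and 1060 CPM in Ctrl, with 3 at 0, against 732 and 552 CPM in RES and Ctrl NK cells. The 14 monocyte and macrophage markers, which include the gated Lyz2, summed to 642 CPM in RES and 364 CPM in Ctrl, and Ly6c2, which NK cells also express, held 497 and 124 CPM of these. The 15 T cell markers summed to 1352 CPM in RES and 3289 CPM in Ctrl, against 790 and 874 CPM in RES and Ctrl NK cells, and 5 of them were at 0 in RES and 4 in Ctrl ILC1-like cells. Markers of natural killer T (NKT) cells, 8 in all, summed to 539 CPM in RES and 2351 CPM in Ctrl, with 1 at 0 in each. In RES and Ctrl NK cells they summed to 237 and 281 CPM. Whether NKT cells are among the members was not tested. The 12 ILC2 and ILC3 markers in the files summed to 181 CPM in RES and 96.8 CPM in Ctrl, with 8 at 0 in each. Hepatocyte markers summed to 88.1 CPM in RES and 59.9 CPM in Ctrl, and endothelial and stellate cell markers to 93.2 and 78.4 CPM. The T cell sum includes Cd3g itself, at 46.6 CPM in RES and 1528 CPM in Ctrl, so it is no separate observation from Cd3g. The B, dendritic, T and NKT cell sums were higher in Ctrl along with Cd3g and the class II genes, and their part in the other ratios was not tested. Where a list holds Cd3g, Siglech or a class II gene, its sum is no separate observation from that gene.

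Set against NK cells of the same libraries, ILC1-like cells had more of the CD200 receptor, TRAIL, Inpp4b and Tmem176 transcripts and less of most Ly49 receptor and NK maturation transcripts. The comparison used the 4 UMI sums (ILC1-like and NK cells of each library, n = 2 libraries) with library as a block, in edgeR's quasi-likelihood test with Benjamini-Hochberg adjustment over 9248 genes. At an adjusted p below 0.05, 239 genes (2.58%) were higher and 191 (2.07%) lower in ILC1-like cells. Each gene has 1 residual degree of freedom, and DESeq2 called 88 higher and 40 lower, all 128 of them also called by edgeR. The gate genes are left out as findings, and genes that follow the gate closely share cells with it.

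Cd200r1, which encodes the inhibitory receptor for CD200, and its relative Cd200r2 were higher in ILC1-like cells. Cd200r2 had 88.1 CPM in RES and 138 CPM in Ctrl ILC1-like cells, and 1 UMI in each NK sum (log2 fold change 8.47 ± 0.54 SE, adjusted p = 2.24e-07, edgeR). Cd200r1 had 119 and 134 CPM in RES and Ctrl ILC1-like cells, against 1.55 and 2.18 CPM in RES and Ctrl NK cells (5.99 ± 0.39, edgeR adjusted p = 2.44e-07). Inpp4b, a phosphoinositide phosphatase, had 181 and 127 CPM in RES and Ctrl ILC1-like cells, against 1.78 and 4.09 CPM in NK cells (5.63 ± 0.40, edgeR adjusted p = 6.53e-07). For all 3 the ILC1-like sums of both libraries were far above both NK sums. Tnfsf10 had 114 and 237 CPM in RES and Ctrl ILC1-like cells, against 7.77 and 7.36 CPM in NK cells (4.46 ± 0.32, edgeR adjusted p = 6.98e-07). AC163354.1, annotated as a lincRNA at chr12:25303940-25471979, had 777 and 758 CPM in RES and Ctrl ILC1-like cells, against 24.9 and 37.6 CPM in NK cells (4.58 ± 0.21, edgeR adjusted p = 4.36e-09).

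Some of the highest genes differed by library within ILC1-like cells. Tcrg-C4, a constant region of the T cell receptor γ chain, had 192 CPM in RES and 50.7 CPM in Ctrl ILC1-like cells, against 0.222 and 1.36 CPM in RES and Ctrl NK cells (7.07 ± 0.66, edgeR adjusted p = 9.48e-06). Cd3g (6.98 ± 0.64) and Klra5 (3.66 ± 0.53, edgeR adjusted p = 0.00059) were carried by Ctrl, and in RES the 1 cell with Cd3g held all 9 UMIs. Tmem176b (4.09 ± 0.49, edgeR adjusted p = 0.000107) and Tmem176a (3.90 ± 0.46) were carried by RES, and DESeq2 did not call Tmem176b. Ckb, a creatine kinase, and 2900026A02Rik completed the 12 with Gzmc, with log2 fold changes of 4.30 and 4.91. Of the 15 tested genes that had been listed as ILC1 genes beside the given markers, 11 were higher and 1, Il18r1, lower (-1.44 ± 0.38), with a list median of 2.38, beside -0.02 over all genes tested. Il18r1 had 269 and 43.8 CPM in RES and Ctrl ILC1-like cells, against 333 and 312 CPM in NK cells, so this difference lay mostly in Ctrl. Ltb, which encodes lymphotoxin β, had 761 and 572 CPM in RES and Ctrl ILC1-like cells, against 125 and 118 CPM in NK cells (2.38 ± 0.18).

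Among the genes lower in ILC1-like cells, S1pr5, which lets NK cells leave tissue for blood, had 31.1 CPM in RES and 2.31 CPM in Ctrl, against 161 and 144 CPM in RES and Ctrl NK cells (-3.75 ± 0.46, edgeR adjusted p = 0.000124). Klf2, a factor that drives S1P receptor expression, had 212 and 80.7 CPM in RES and Ctrl ILC1-like cells, against 1001 and 904 CPM in NK cells (-2.92 ± 0.26, edgeR adjusted p = 5.39e-06). These 2 genes, tied to exit from tissue, were low in ILC1-like cells of both libraries. Cma1, a mast cell protease gene that mature NK cells also transcribe, had 36.3 and 2.31 CPM in RES and Ctrl ILC1-like cells, against 288 and 232 CPM in NK cells (-4.29 ± 0.42, edgeR adjusted p = 1.61e-05). DESeq2 did not call S1pr5 or Cma1.

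Of 18 tested NK maturation genes none was higher and 14 were lower, with a median of -1.89. Zeb2, a repressor needed for terminal NK maturation, had 202 and 62.2 CPM in RES and Ctrl ILC1-like cells, against 521 and 622 CPM in NK cells (-2.39 ± 0.32). Prf1 had 295 and 290 CPM in RES and Ctrl ILC1-like cells, against 963 and 1086 CPM in NK cells (-1.87 ± 0.18, edgeR adjusted p = 1.41e-05). Gzma was lower by 1.36 ± 0.31 on the log2 scale (edgeR adjusted p = 0.0198), a call that was lost without the library block, in DESeq2, and with barcodes carrying Cd79a, Ms4a1 or Siglech left out. Gzmb did not pass (0.54 ± 0.31, edgeR adjusted p = 0.502): ILC1-like cells had 399 CPM in RES and 1768 CPM in Ctrl, against 577 and 647 CPM in RES and Ctrl NK cells, so that the sign differed between the libraries. Of 9 tested Ly49 genes 6 were lower and 1 higher. Klra8, the receptor Ly49H, had 36.3 and 59.9 CPM in RES and Ctrl ILC1-like cells, against 903 and 935 CPM in NK cells (-4.22 ± 0.24, edgeR adjusted p = 5.62e-08), with the reserve on near-identical copies stated above. Klra4 (-5.55) and Klra7 (-3.27) were lower too, and Klra1 and Khdc1a, with no UMI in RES ILC1-like cells, were at 20.7 and 6.92 CPM in Ctrl.

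**Figure D5:**
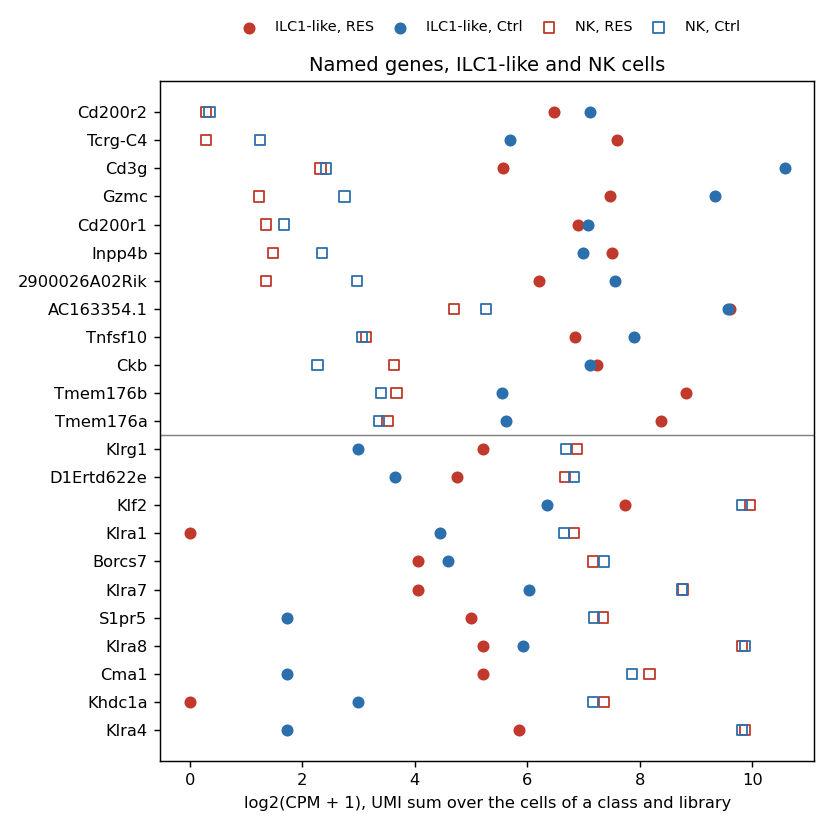
Each row is 1 named gene and each point log2(CPM + 1) of the UMI sum of ILC1-like cells (filled circles) or NK cells (open squares) in RES (red) or Ctrl (blue); the 12 genes higher in ILC1-like cells are above the line and 11 of the 12 lower ones below it. In every row both circles lie on the same side of both squares, which the choice of genes with the same direction in both libraries largely set.

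Other groups split by function. Of 20 tested cytokine receptor genes 4 were higher and 2 lower: Il7r had 430 and 76.1 CPM in RES and Ctrl ILC1-like cells, against 24.4 and 19.9 CPM in NK cells (3.15 ± 0.39, edgeR adjusted p = 0.000131), and Il18rap was lower (-1.40 ± 0.26). Il18rap had 275 and 120 CPM in RES and Ctrl ILC1-like cells, against 424 and 487 CPM in NK cells, a larger difference in Ctrl. Lag3, an inhibitory receptor, had 57.0 and 83.0 CPM in RES and Ctrl ILC1-like cells, against 2.89 and 3.82 CPM in NK cells (4.31 ± 0.45, edgeR adjusted p = 2.77e-05), 1 of 4 higher among 13 tested checkpoint and costimulation genes, with none lower. Of 11 tested genes linked to TGF-β imprinting 4 were higher and 1 lower. Gpr34, a lysophosphatidylserine receptor, had 51.8 and 64.5 CPM in RES and Ctrl ILC1-like cells and 1 UMI in each NK sum (7.53 ± 0.66, edgeR adjusted p = 5.01e-06). Cd9, a tetraspanin, was lower by 1.09 ± 0.23 on the log2 scale. Of 16 tested adhesion genes 3 were higher and 6 lower. Cd226, the activating receptor DNAM-1, had 290 and 260 CPM in RES and Ctrl ILC1-like cells, against 51.5 and 46.6 CPM in NK cells (2.43 ± 0.19, edgeR adjusted p = 2.04e-06), and Itga4, the α4 integrin, was lower (-2.40 ± 0.20). Itgam was lower (-1.78 ± 0.24) in cells that had all been sorted for its protein. Of 12 tested MHC class I genes 1 was higher. Of the 6 erythroid and platelet markers 3 were tested, all haemoglobin genes and all lower, and the 6 summed to 1394 CPM in RES and 30.0 CPM in Ctrl NK cells, against 20.7 and 2.31 CPM in RES and Ctrl ILC1-like cells.

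Cells near the gate were compared as a description. Members with exactly 2 UMIs of Itga1 and Cxcr6 together (7 RES and 24 Ctrl cells) had 1018 CPM of Xcl1 in RES and 1244 CPM in Ctrl, and 770 and 1731 CPM of Cd7. Barcodes just outside, with 1 such UMI and no Eomes (22 RES and 33 Ctrl cells), had 1703 CPM of Xcl1 in RES and 1575 CPM in Ctrl, and 717 and 827 CPM of Cd7. They also had 4427 CPM of Cd74 in RES and 2124 CPM in Ctrl, against 114 and 438 CPM in the members. Barcodes with neither transcript and no Eomes (406 RES and 434 Ctrl cells) were like NK cells in Klra8, at 804 CPM in RES and 738 CPM in Ctrl. Barcodes with 2 or more Itga1 and Cxcr6 UMIs but also Eomes numbered 14 in RES and 8 in Ctrl, and had 1236 CPM of Xcl1 in RES and 743 CPM in Ctrl. Of the members, 18 RES and 68 Ctrl cells had both Itga1 and Cxcr6, 9 and 32 had Itga1 alone, and 4 and 4 had Cxcr6 alone. Among RES members Il7r was at 614 CPM in cells with both and 90.2 CPM in cells with Itga1 alone, while Gzmb was at 185 CPM in cells with both and 1127 CPM in cells with Itga1 alone, where the 1 RES cell with Cd3g held 23 of 50 UMIs. Among Ctrl members Gzmb was at 1829 CPM in cells with both and 1565 CPM in cells with Itga1 alone.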

How the data were processed

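The authors deposited raw UMI counts per gene and barcode (31053 genes) for 2 libraries of 5 pooled mice each, without normalization; Cell Ranger 3.1.0 is named per the file headers, and bcl2fastq, Cell Ranger and mm10 per the submitters' processing notes. Which gene annotation the counting used is not given in the sources used here. Members and gene lists were chosen with earlier results of these data known.

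From these counts, barcodes were gated on raw UMIs after limits of 200 genes (lowest) and 10% mitochondrial UMIs (highest). UMIs were summed by library and class. RES over Ctrl ratios carry exact conditional binomial intervals, shares Clopper-Pearson intervals, differences of shares Newcombe intervals and single sums Poisson intervals, at 95%. ILC1-like cells were compared with NK cells with edgeR 4.0.16 (filterByExpr, TMM, library block). The p-values measure how far the difference between the classes varied between the RES and the Ctrl library, which are not replicates of 1 condition. The 1 residual degree of freedom of each gene is moderated across genes, with a median prior of 13.4 degrees of freedom, so the p-values rest largely on that prior. The fit and the intervals were tested on simulated data. Named genes against NK cells were the 12 highest and 12 lowest with an adjusted p below 0.05, a mean of at least 100 CPM in either class and the same direction in both libraries. For RES over Ctrl they were the 12 highest and 12 lowest with 100 CPM or more in either library and an interval off 1, ranked with a pseudocount of 10 CPM. The ranking had no gate, mitochondrial, ribosomal protein, haemoglobin, Xist or Y-linked gene. In addition the given markers and up to 6 members of each list at 20 CPM or more were named; 1 of the 12 lowest against NK cells is not reported here. No cell was removed as a doublet; leaving out the highest Scrublet scores (0.8% per 1000 barcodes) was an alternative. All 45 named genes had a GENCODE M21 position. Ratios of RES over Ctrl are unscaled by TMM.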

Additional observations from a re-analysis of the deposited data

Results flagged for a closer look

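The ratio of RES over Ctrl had opposite signs in ILC1-like and NK cells, with intervals off 0 in both, for 3 MHC class II genes, which present peptides to helper T cells. For H2-Aa it was -4.64 in ILC1-like cells and 0.75 in NK cells. For H2-Ab1 it was -3.03 in ILC1-like cells and 0.64 in NK cells. For H2-Eb1 it was -1.76 in ILC1-like cells (25.9 CPM in RES, 87.6 CPM in Ctrl) and 0.82 in NK cells (121 CPM in RES, 68.5 CPM in Ctrl). The difference between the classes was not tested, since each group was 1 library. With cells thinned to 2000 UMIs before the gate, the ratio in ILC1-like cells was 0.87 for H2-Aa and 1.09 for H2-Ab1, the sign of NK cells. The RES ILC1-like sums hold 1, 3 and 5 UMIs of H2-Aa, H2-Ab1 and H2-Eb1.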

How the results depend on the processing

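The difference in share, -2.27 percentage points, was 0.0592 with Cd3e, Cd3d, Cd3g and Trac all at 0, -1.54 with Itga1 and Cxcr6 each required, -1.60 with no Lyz2 UMI and -6.62 among ILC1-like and NK cells. For RES over Ctrl, 463 genes met the criteria (192 higher, 271 lower). These were 295 (95 higher) with the 4 T cell genes at 0, of which 139 were shared. They were 170 (111 higher, 59 lower, 71 shared) after thinning to 2000 UMIs before the gate and 128 (59 higher, 69 lower) with a limit of 200 CPM. With totals that leave out mitochondrial and ribosomal protein genes 300.0 were higher, out of 541. Reversed were H2-Aa (0.87) and H2-Ab1 (1.09) after thinning before the gate, and Igkc with the highest doublet scores left out (0.34) or without cells carrying Cd79a, Ms4a1 or Siglech (0.31, an alternative chosen after seeing the data). Of the other single-gene values for RES over Ctrl, 40 moved beyond their interval and 264 did not.

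Against NK cells, 430 genes were called (239 higher, 191 lower; 1331 at an unadjusted p below 0.05). These were 243 (119 and 124) with the T cell genes at 0, 199 (95 and 104) after thinning before the gate and 128 (88 and 40) in DESeq2. With cells thinned before summing 159 were higher, and with no filter on low counts 325 were lower. Without the replicate block, that is the pairing of both classes by library, 440 were called, 393 of them shared. With 1 library left out there is no test: Gzmb was then -0.53 in RES alone and 1.45 in Ctrl alone. The 31 RES members limit all RES over Ctrl ratios, and 1 UMI there is worth over 5 CPM.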
